A study of Homo sapiens with 4 samples.

Results

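RNA was sequenced from ES2, an established human ovarian cancer cell line, to ask what EC359, a small-molecule inhibitor of the leukemia inhibitory factor receptor, does to gene expression. The 2 groups were ES2 cells treated for 12 h with vehicle (0.1% DMSO) and ES2 cells treated for 12 h with EC359 at 10 nM, with 2 libraries each, numbered replicate 1 and 2. Described here are 10 genes of the core ferroptosis machinery, chosen by name as the cystine transporter, GPX4, the suppressors that act beside it, and the enzymes that supply its lipid substrates. They are SLC7A11, SLC3A2, GPX4, AIFM2, DHODH, GCH1, ACSL3, ACSL4, LPCAT3 and AGPS, and all 10 were found among the 23228 gene symbols and had enough reads to be tested.

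Ferroptosis is a form of cell death in which iron drives the peroxidation of polyunsaturated fatty acids in membrane phospholipids. Cells hold it back by importing cystine for glutathione, which GPX4 uses to reduce lipid peroxides, and by keeping radical-trapping molecules such as reduced coenzyme Q and tetrahydrobiopterin in their membranes. How much oxidizable lipid a membrane holds depends on the enzymes that activate fatty acids and build them into phospholipids.

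Genomic sequence of the site that carries out the GPX4 reaction is shown first, since GPX4 is the enzyme the other genes feed or back up. GPX4 is a selenoprotein, and its catalytic selenocysteine is encoded by TGA, which is otherwise a stop codon. In the annotation the codon is number 73 of 197 in the main GPX4 transcript and lies within an exon on chromosome 19 of GRCh37 (the assembly UCSC names hg19) from 1105402 to 1105404, on the plus strand. The stretch chr19:1105381-1105425 holds this codon, in capitals, and 7 codons on each side.
GPX4 selenocysteine codon: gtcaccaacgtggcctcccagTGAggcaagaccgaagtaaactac

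Promoter sequences from RefSeq (GRCh38.p14), taken as the 250 bases before an annotated start, were matched for 8 of the 10 genes in 12 windows. SLC7A11 and GCH1 were not matched. The windows were searched on both strands for TGACNNNGC, the core of the antioxidant response element bound by NRF2, for TGATGNAAN, the amino acid response element bound by ATF4, and for TTCNNNGAA, a STAT motif. These were chosen because NRF2, ATF4 and STAT3 are known regulators of cystine import. The antioxidant core was present in 2 of the 12 windows, against 10.9% of 35116 promoter windows in all. The amino acid element was present in 0 of 12 (3.13% of all windows) and the STAT motif in 2 (6.57%), both of them SLC3A2 windows. The windows with the antioxidant core belong to SLC3A2 (chr11:62881449-62881698, plus strand) and AIFM2 (chr10:70132826-70133075, minus strand), and are printed with the matches in capitals because they share the same letters. Both windows are printed in the direction of the gene, and TGACTCAGC stands as such in that of SLC3A2 and as its reverse complement, GCTGAGTCA, in that of AIFM2. These letters also hold TGACTCA, a site for AP-1 factors.
SLC3A2 promoter: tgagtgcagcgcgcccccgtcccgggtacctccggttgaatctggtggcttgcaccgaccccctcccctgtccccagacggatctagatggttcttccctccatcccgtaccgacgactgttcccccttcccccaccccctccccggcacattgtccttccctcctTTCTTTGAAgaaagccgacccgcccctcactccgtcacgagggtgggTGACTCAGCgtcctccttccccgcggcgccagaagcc
AIFM2 promoter: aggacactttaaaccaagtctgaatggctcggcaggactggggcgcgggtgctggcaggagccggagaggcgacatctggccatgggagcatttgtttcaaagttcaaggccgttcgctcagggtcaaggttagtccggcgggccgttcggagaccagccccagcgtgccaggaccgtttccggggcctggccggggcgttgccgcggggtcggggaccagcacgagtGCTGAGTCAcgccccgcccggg

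The files held raw read counts per gene, with between 25572494 and 31707553 counts per library. The study describes the replicates as independent biological samples, which the labels themselves do not state. Of the 9 ovarian epithelial markers, KRT7, KRT8 and KRT18 had from 556 to 8979 reads in every library, PAX8 from 24 to 41 and WT1 from 76 to 119, while KRT19 had from 5 to 23 and EPCAM, MUC16 and MSLN between 0 and 2. The defining markers of immune cells were at or near 0 (PTPRC between 0 and 1 reads, CD3E at 0), with CD68 the exception at 2296 reads or more. Among endothelial markers PECAM1 and VWF had between 0 and 2 reads, whereas CDH5 had 3118 or more. Among fibroblast markers COL1A1 had 11994 reads or more, while PDGFRB had from 2 to 17, DCN from 1 to 3, COL1A2 between 0 and 1, and LUM was at 0. CD68, CDH5 and COL1A1 made up nearly all of the sums of their lists. The summed normalized count of each marker list ran from 3510 to 3730 with vehicle and from 3500 to 3600 with EC359 for endothelial markers, from 13300 to 15100 and 13300 for fibroblast markers, from 2560 to 2730 and 2530 to 2580 for immune markers, and from 15200 to 16400 and 16500 to 16600 for ovarian markers, and their part in the results was not tested.

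Levels were compared between genes as RPKM, the reads of a gene scaled to the length of its main annotated transcript and to library size. GPX4 was the most abundant of the 10 transcripts, at 132 to 155 over the 4 libraries. ACSL4 (83.4 to 91.7) and SLC3A2 (79.9 to 90.1) followed, and their ranges overlapped. ACSL3 (28.2 to 30.2), AGPS (19.9 to 22.1), LPCAT3 (9.76 to 10.4) and AIFM2 (3.96 to 4.49) came next, each range separate from that of its neighbours in this order. DHODH (3.29 to 3.64), SLC7A11 (2.76 to 3.83) and GCH1 (1.90 to 3.15) were the least abundant, and in this order each range overlapped the next. Among tested genes with a known length, GPX4 stood at percentile 96.2 and SLC7A11 at percentile 27.6.

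**Figure D1:**
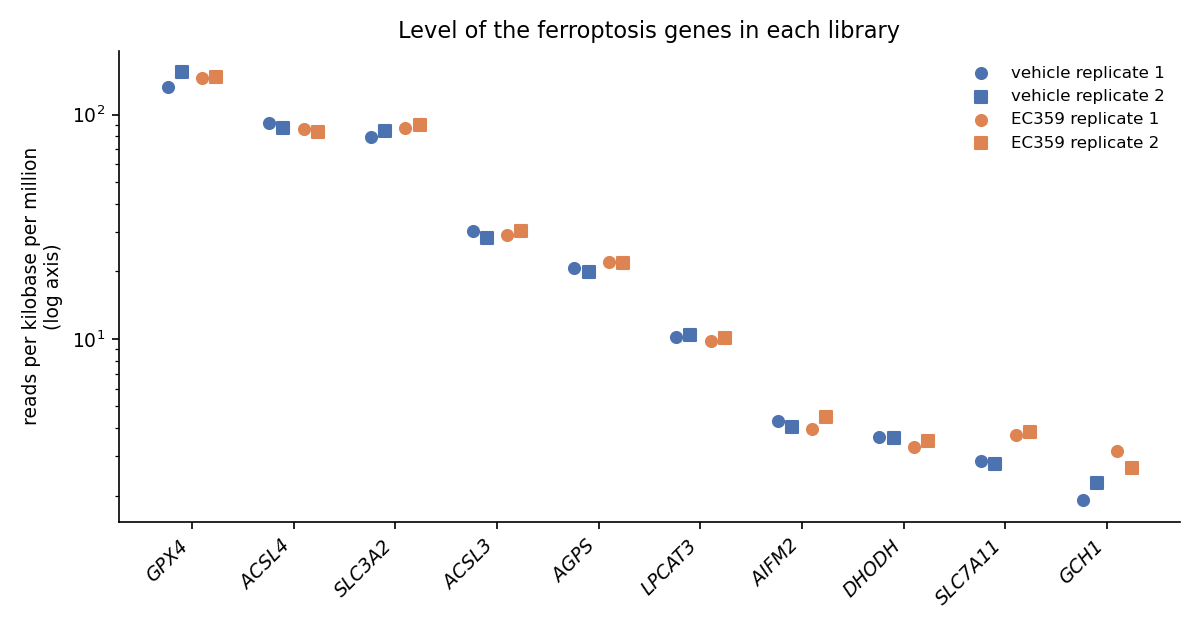
Level of each ferroptosis gene in each library, in RPKM (reads scaled to transcript length and library size) on a log axis, ordered by the mean over 4 libraries. Circles are replicate 1 and squares replicate 2, in blue for vehicle and orange for EC359. GPX4 lies highest, between 132 and 155, and GCH1 lowest, between 1.90 and 3.15.

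SLC7A11 was the 1 gene of the 10 that passed the test. With EC359 its transcript rose by 35.0%, and GCH1 was higher by 39.4% without passing. GPX4, AIFM2, ACSL3 and LPCAT3 differed between treatments by less than 4% in the fit, and DHODH and ACSL4 had log2 fold changes of -0.10 and -0.07. The call required an adjusted p under 0.01, where p came from the quasi-likelihood test of edgeR and the Benjamini-Hochberg adjustment ran over all 12706 genes tested. At this threshold 1 of 10 members was called higher, beside 0.299% of all genes tested, and 0 were called lower, beside 0.795%. In both directions 1.09% of all genes tested were called. No member was lower at an unadjusted p under 0.05 (0 of 10, beside 11.0% of all genes) and 4 were higher (beside 10.7%), which makes 4 in both directions beside 21.6%. Both edgeR's exact test and limma voom also called 0 members lower. DESeq2 called 0 lower too, but it set no adjusted p for AIFM2, DHODH and GCH1, so it could not call these. With each library's trend against GC content and length removed, 1 member, ACSL4, was called lower (log2 fold change -0.12). The median log2 fold change of the 10 genes was 0.026, beside 0.0029 for all genes tested.

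**Figure D2:**
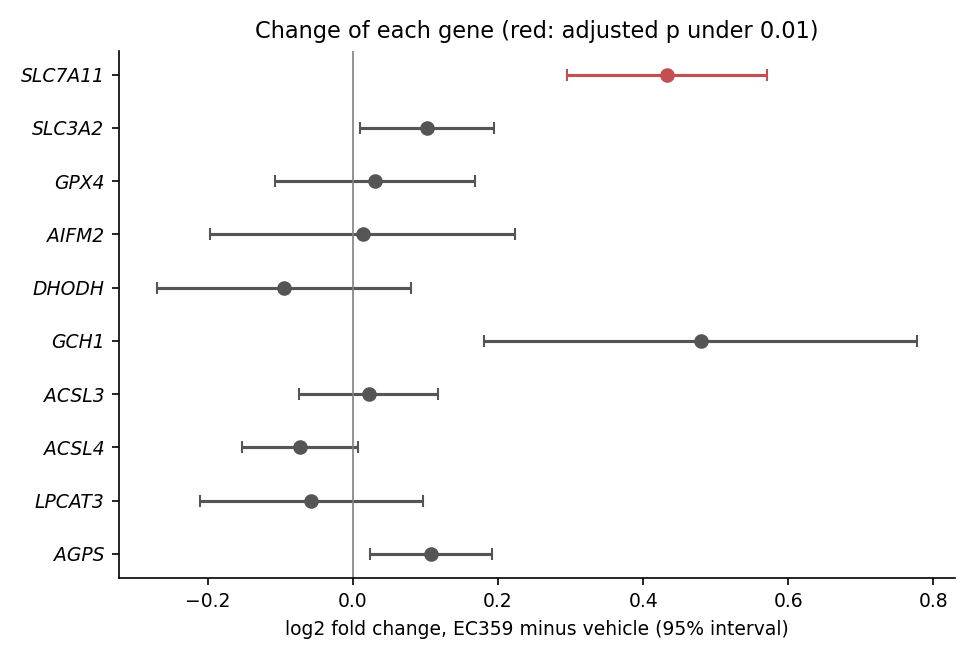
Log2 fold change of each gene, EC359 minus vehicle, with its 95% interval from the quasi-likelihood fit over 4 libraries. SLC7A11, in red, had an adjusted p under 0.01, at 0.43. GCH1 had a wider interval around 0.48, and the intervals of GPX4, AIFM2, DHODH, ACSL3, ACSL4 and LPCAT3 cross 0.

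System Xc- consists of SLC7A11, the light chain that exchanges cystine for glutamate, and SLC3A2, the heavy chain that carries it to the plasma membrane. The SLC7A11 gene occupies chr4:139085251-139163503 of GRCh37 on the minus strand. Its normalized count, that is its count at the mean library size, was 777 and 750.0 in the vehicle libraries and 1019.8 and 1042 in the EC359 libraries. Both EC359 libraries thus lay above the vehicle pair, and the gap was larger than the difference within either pair. The fold change was 1.35 (95% interval 1.23 to 1.49, n = 2 libraries each, adjusted p = 0.0055 in edgeR). Without a filter on low counts, which raised the number of genes tested, the adjusted p was 0.0107. Leaving out vehicle replicate 1 or 2 gave a log2 fold change of 0.46 or 0.40, and leaving out EC359 replicate 1 or 2 gave 0.45 or 0.42. SLC7A11 was called when a vehicle library was left out and not when an EC359 library was. Each of these fits has 1 library in a group. Of the exon bases of SLC7A11, 8.97% lie under SLC7A11-AS1 on the opposite strand. The strand setting of the counting is not given in the sources used here, so reads of these bases are uncertain.

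SLC3A2 (chr11:62623476-62656352 of GRCh37) had normalized counts of 4251 and 4522 with vehicle and 4626 and 4794 with EC359. The groups did not overlap, but the gap between the nearest libraries was smaller than the difference between the vehicle libraries. Its fold change was 1.07 (95% interval 1.01 to 1.14, adjusted p = 0.189), and it was not called. With each library's trend against GC content and length removed, the adjusted p was 0.0093 (log2 fold change 0.12).

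The ratio of SLC7A11 to SLC3A2 within a library does not depend on how libraries are scaled. On the log2 scale of counts it was -2.45 and -2.59 with vehicle and -2.18 and -2.20 with EC359, higher by 0.33 on average with EC359. Per kilobase, SLC7A11 stood at 0.0357 and 0.0324 of SLC3A2 with vehicle and at 0.0431 and 0.0425 with EC359. Both EC359 libraries had more SLC7A11 per SLC3A2 than both vehicle libraries. With 2 libraries against 2 the exact two-sided permutation test cannot go below 0.333, and this was its value here. Over the 4 ratios computed between members the adjusted p was 0.444.

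SLC3A2 also carries other light chains, among them SLC7A5, which imports leucine and other large neutral amino acids. Per kilobase SLC7A5 was at 39.9 and 43.9 with vehicle and 42.9 and 44.3 with EC359, well above SLC7A11 in all 4 libraries. SLC7A6, which exchanges cationic for neutral amino acids, was lower with EC359 (log2 fold change -0.22, adjusted p = 0.0244) but was not called, while edgeR's exact test gave it an adjusted p of 0.0012. SLC7A8 had a log2 fold change of 0.24 (adjusted p = 0.572). Of the 8 other heteromeric transporter genes listed, 3 had enough reads to be tested and 0 were called. At an unadjusted p under 0.05, 1 was lower and 0 higher, beside 11.0% and 10.7% of all genes tested. The 3 tested genes whose pattern over the 4 libraries lay nearest to that of SLC7A11, by the Euclidean distance of centred log2 levels among 9104 genes, were THBS1, a secreted matrix glycoprotein (distance 0.0275), FAM111A, a protease that restricts viruses (0.0355), and SAMD9, an antiviral factor (0.0499).

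The GPX4 gene occupies chr19:1103981-1106790 of GRCh37. Its normalized count was 3176 and 3716 with vehicle and 3490.1 and 3549 with EC359. Both EC359 libraries lay between the vehicle libraries, which were further apart (SD 382) than the EC359 libraries (SD 41.8). The fold change was 1.02 (95% interval 0.928 to 1.12, adjusted p = 0.827), and a difference was not detectable with these libraries. Which vehicle library was used set the direction, with a log2 fold change of -0.08 without vehicle replicate 1 and 0.14 without vehicle replicate 2. SLC7A11 per GPX4 was higher in both EC359 libraries than in both vehicle libraries, by 0.40 on the log2 scale (exact permutation p = 0.333).

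Among other glutathione peroxidases, GPX1, which reduces hydrogen peroxide in the cytosol and mitochondria, had 2393 and 2811 normalized counts with vehicle and 2800.2 and 3061 with EC359 (log2 fold change 0.17, adjusted p = 0.194), and its groups overlapped. GPX8, of the endoplasmic reticulum, had a log2 fold change of -0.02 (adjusted p = 0.839) and GPX3 of 0.15 at very low counts (adjusted p = 0.931). GPX2, GPX5, GPX6 and GPX7 had too few reads to be tested. Of 9 tested genes for the insertion of selenocysteine, 0 were called. At an unadjusted p under 0.05, 1 was lower and 0 higher, beside 11.0% and 10.7% of all genes tested. The lower gene was LRP8, a receptor for the selenium carrier selenoprotein P, with 2024 and 2026 normalized counts with vehicle and 1668 and 1676 with EC359 (log2 fold change -0.28, adjusted p = 0.0114). DESeq2 and the exact test called LRP8 (adjusted p = 0.00577 and 4.52e-05). SEPHS1 and SECISBP2 had log2 fold changes of -0.09 and 0.13 (adjusted p = 0.237 and 0.327).

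**Figure D3:**
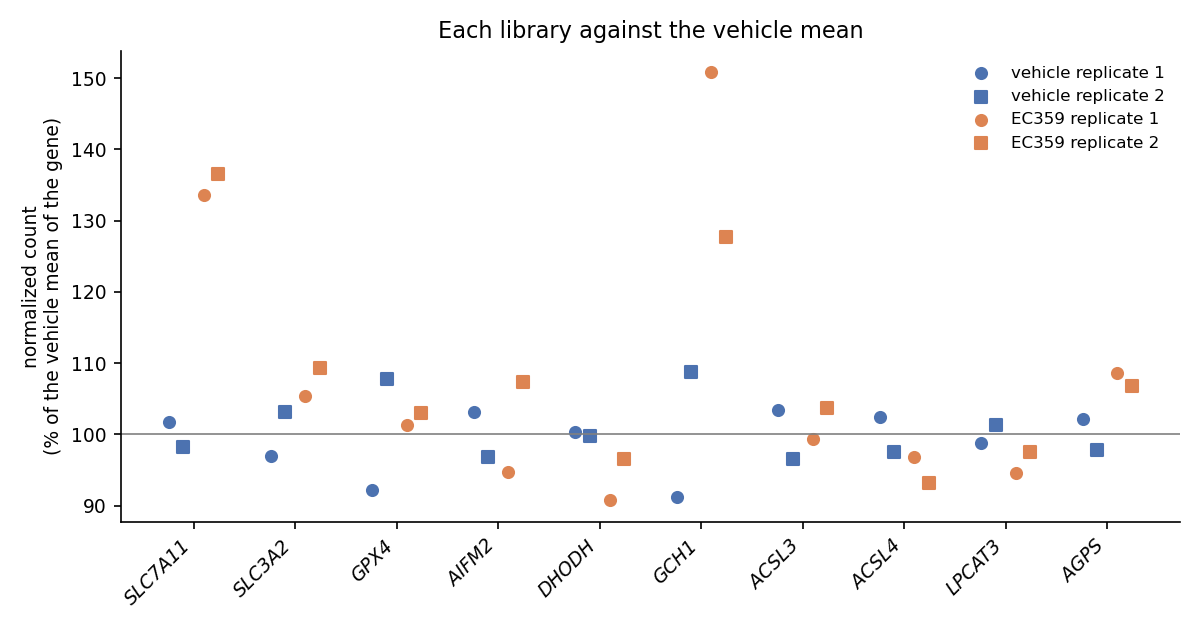
Normalized count of each gene in each library, as a percent of the mean of its 2 vehicle libraries. Circles are replicate 1 and squares replicate 2, in blue for vehicle and orange for EC359. SLC7A11 and GCH1 have both EC359 libraries above the vehicle pair, by a gap that for GCH1 is about as large as the difference between its vehicle libraries, while for GPX4 the EC359 libraries lie between the vehicle libraries.

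Suppressors that act beside GPX4 were examined next. AIFM2 (also called FSP1) reduces coenzyme Q at the plasma membrane, and DHODH does so in the inner mitochondrial membrane while making pyrimidines. AIFM2 (chr10:71857979-71892690 of GRCh37) had normalized counts of 381 and 358 with vehicle and 350.2 and 397 with EC359. The EC359 libraries lay on either side of the vehicle libraries, and the fold change was 1.01 (95% interval 0.872 to 1.17, adjusted p = 0.959). AIFM2 per GPX4, on the log2 scale, was -3.06 and -3.37 with vehicle and -3.32 and -3.16 with EC359, and the groups overlapped (exact permutation p = 1). DHODH (chr16:72042487-72061563) had 479 and 476 with vehicle and 433 and 461 with EC359. Each EC359 library lay below the vehicle pair, with a fold change of 0.936 (95% interval 0.829 to 1.06, adjusted p = 0.528), which did not pass.

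Of the 13 tested genes of coenzyme Q synthesis, 0 were called by the quasi-likelihood test, and their median log2 fold change was -0.066. DESeq2 called 0 too, but it set no adjusted p for some genes with low counts. At an unadjusted p under 0.05, 1 was lower and 0 higher, beside 11.0% and 10.7% of all genes tested. ADCK3 (COQ8A), an atypical kinase needed for coenzyme Q synthesis, had 940.3 and 1052 normalized counts with vehicle and 802 and 877 with EC359 (log2 fold change -0.25, adjusted p = 0.0904). ADCK4 and COQ2 had log2 fold changes of -0.31 and -0.15 (adjusted p = 0.238 and 0.259). The 4 tested pyrimidine genes had log2 fold changes between -0.04 and 0.05, CAD and CTPS2 being below 0 (-0.04 and -0.02) and CTPS1 above it (0.05), and 0 were called or had an unadjusted p under 0.05.

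GCH1 makes the first committed step of tetrahydrobiopterin synthesis. It occupies chr14:55308726-55369544 of GRCh37 on the minus strand, and had the largest fold change of the 10 genes at one of the lowest counts. Normalized counts were 157 and 187 with vehicle and 259 and 219 with EC359. Each EC359 library lay above the vehicle pair. The gap between the nearest libraries was about as large as the difference between the vehicle libraries and smaller than that between the EC359 libraries. The fold change was 1.39 (95% interval 1.13 to 1.71, adjusted p = 0.0735), and it was not called. Leaving out 1 library in turn moved the log2 fold change of GCH1 between 0.35 and 0.61, the lowest value being that without EC359 replicate 1.

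Of 6 other tested genes of tetrahydrobiopterin synthesis and recycling 0 were called. At an unadjusted p under 0.05, 1 was lower and 0 higher, beside 11.0% and 10.7% of all genes tested. GCHFR, the feedback regulator of GCH1, had too few reads to be tested. PCBD1, which recycles the oxidized cofactor, had a log2 fold change of -0.12 (adjusted p = 0.220) and SPR, which makes the last step of synthesis, of -0.10 (adjusted p = 0.411).

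Lipid substrates of ferroptosis are set by ACSL4, which activates polyunsaturated fatty acids, by LPCAT3, which places them in phospholipids, by ACSL3, which activates monounsaturated fatty acids and opposes ferroptosis, and by AGPS, which makes the ether bond of plasmalogens in peroxisomes. ACSL4 (chrX:108867473-108976632 of GRCh37) had normalized counts of 12658 and 12041 with vehicle and 11964 and 11514 with EC359. Each EC359 library lay below the vehicle pair by a small margin, with a fold change of 0.951 (95% interval 0.899 to 1.00, adjusted p = 0.273). With GC and length trends removed ACSL4 was called lower (log2 fold change -0.12, adjusted p = 0.00184).

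ACSL3 (chr2:223725660-223809357) had 4746 and 4435 with vehicle and 4561 and 4759 with EC359. The groups overlapped, with a fold change of 1.02 (95% interval 0.950 to 1.08, adjusted p = 0.821). The ratio of ACSL4 to ACSL3 per kilobase was 3.04 and 3.10 with vehicle and 2.99 and 2.76 with EC359. Both EC359 ratios were below both vehicle ratios, lower by 0.10 on the log2 scale of counts (difference -0.10, exact permutation p = 0.333). The difference was -0.04 without EC359 replicate 2 and -0.15 without EC359 replicate 1.

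LPCAT3 (chr12:7085347-7125781 of GRCh37) had 642 and 659 with vehicle and 616 and 635 with EC359 (fold change 0.961, 95% interval 0.864 to 1.07, adjusted p = 0.679). The EC359 libraries were below the vehicle libraries, and the gap was smaller than the difference within either pair. In the annotation 67.4% of LPCAT3 exon bases lie under EMG1 on the opposite strand, so its count is uncertain. AGPS (chr2:178257474-178431752) had 4474 and 4282 with vehicle and 4757 and 4676 with EC359. Each EC359 library lay above the vehicle pair, with a fold change of 1.08 (95% interval 1.02 to 1.14, adjusted p = 0.136), and AGPS was not called. With GC and length trends removed its log2 fold change was 0.05 in place of 0.11. Over the 10 members, both EC359 libraries lay above both vehicle libraries for 4 and below for 3, a separation found in 26.1% and 25.4% of all genes tested, or 51.5% in both directions.

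**Figure D4:**
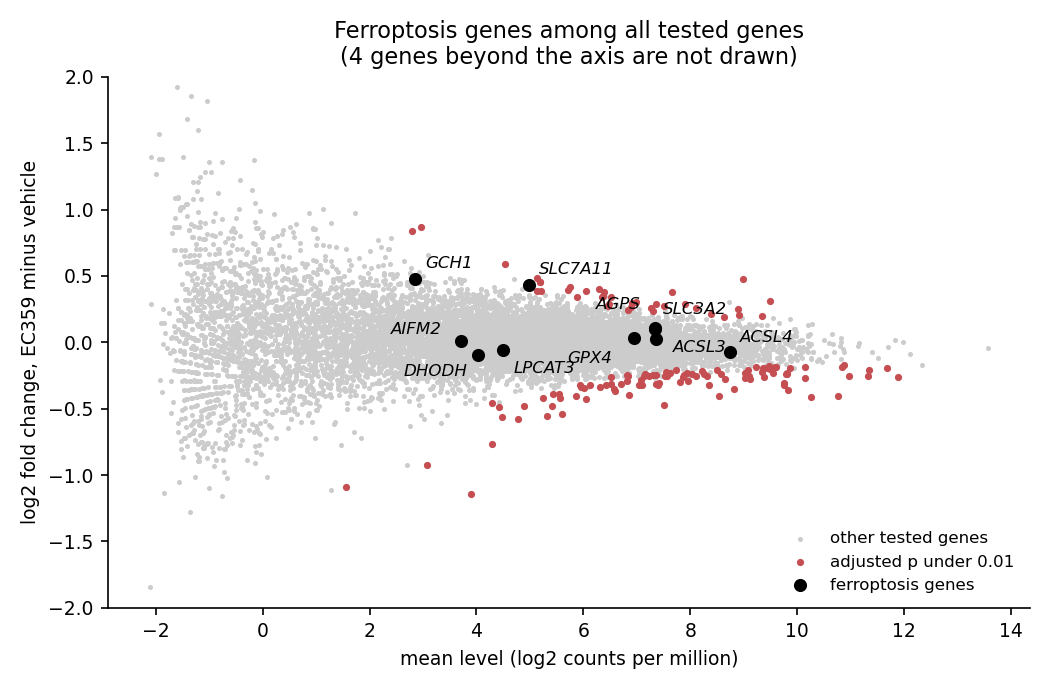
Mean level (log2 CPM, counts scaled to library size) against log2 fold change, EC359 minus vehicle, for all 12706 genes tested. Black points are the 10 ferroptosis genes, red points genes with an adjusted p under 0.01, and 4 genes beyond the axis are not drawn. SLC7A11 (0.43) and GCH1 (0.48) lie above the band that holds the other 8.

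Genes around the lipid enzymes were mixed in direction. SCD, which desaturates stearoyl-CoA and so makes the monounsaturated fatty acids that ACSL3 activates, fell, with 12626 and 12336 normalized counts with vehicle and 10444 and 10188 with EC359. Its EC359 libraries were far below its vehicle libraries (fold change 0.827, 95% interval 0.787 to 0.868, adjusted p = 0.00234). Leaving out vehicle replicate 1 or 2 gave a log2 fold change of -0.26 or -0.30, and leaving out EC359 replicate 1 or 2 gave -0.29 or -0.26. SCD was called when a vehicle library was left out and not when an EC359 library was. It was the 1 gene called among 6 for fatty acid elongation and desaturation, beside 0.795% of all genes tested called lower. FADS2, which makes polyunsaturated fatty acids, had a log2 fold change of -0.15 (adjusted p = 0.237) and ELOVL5 of 0.06 (adjusted p = 0.397).

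Among 13 lysophospholipid acyltransferases 0 were called. At an unadjusted p under 0.05 there were 3 higher and 2 lower, beside 10.7% and 11.0% of all genes tested. MBOAT1 and MBOAT2, which place monounsaturated fatty acids in phospholipids, had log2 fold changes of 0.33 and 0.29 (adjusted p = 0.0432 and 0.0325). Both EC359 libraries of MBOAT1 (473 and 480.0) and of MBOAT2 (975 and 1011) were above the vehicle libraries (379 and 378 for MBOAT1, 835 and 789 for MBOAT2). LPCAT4 had a log2 fold change of -0.25 (adjusted p = 0.054). The exact test called MBOAT1 and MBOAT2 higher (adjusted p = 0.00594 and 0.00238), and DESeq2 did not call MBOAT2. At counts like those of MBOAT1, DESeq2 set no adjusted p for some genes, among them DHODH, so its result for MBOAT1 is not given.

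Of 7 tested genes for fatty acid activation 0 were called. There were 1 higher and 0 lower at an unadjusted p under 0.05, beside 10.7% and 11.0% of all genes tested. ACSL5 had 407 and 396 normalized counts with vehicle and 485 and 507 with EC359 (log2 fold change 0.30, adjusted p = 0.0588). SLC27A4 and SLC27A3 had log2 fold changes of -0.11 and -0.22 (adjusted p = 0.355 and 0.532). Of 11 genes of ether lipid synthesis, the route AGPS belongs to, 0 were called. There were 2 lower and 0 higher at an unadjusted p under 0.05, beside 11.0% and 10.7% of all genes tested. A lower mean with EC359 was found for 8 of the 11, beside 6230 of all 12706 genes tested. PEX3 and PEX5, which build peroxisomes and import their enzymes, had log2 fold changes of -0.15 and -0.14 (adjusted p = 0.203 and 0.220), and GNPAT, which acts just before AGPS, of -0.07 (adjusted p = 0.411).

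Lipoxygenases, which oxidize polyunsaturated fatty acids directly, were scarce, as ALOX5, ALOX12, ALOX12B, ALOX15 and ALOX15B had too few reads to be tested. Of the 14 genes listed for lipid peroxidation 7 were tested, among them POR and CYB5R1, oxidoreductases that pass electrons to oxygen, at mean levels of 22.5 and 19.5 RPKM. Of the tested genes 0 were called, and 1 was higher and 1 lower at an unadjusted p under 0.05, beside 10.7% and 11.0% of all genes tested. PEBP1, which directs 15-lipoxygenase to phospholipids, had 6989 and 6973 normalized counts with vehicle and 6056 and 6246 with EC359 (log2 fold change -0.18, adjusted p = 0.0169), and its EC359 libraries lay below the vehicle pair. It was called by DESeq2 (adjusted p = 0.00706) and the exact test (0.000446). NOX4, an oxidase that makes hydrogen peroxide, had a log2 fold change of 0.34 (adjusted p = 0.211). ALOX5AP, with normalized counts between 3.34 and 21.5, had a log2 fold change of 1.08 (adjusted p = 0.273).

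Regulators of SLC7A11 included 1 gene called of 10 tested, in the higher direction, beside 0.299% of all genes tested. Another 0 were called lower, beside 0.795%. Counted at an unadjusted p under 0.05, 2 were higher and 3 lower, beside 10.7% and 11.0%. ATF3, a stress-induced factor that is known to repress SLC7A11, rose, with 152 and 141 normalized counts with vehicle and 249 and 276 with EC359 (fold change 1.79, 95% interval 1.49 to 2.15, adjusted p = 0.0055). Leaving out vehicle replicate 1 or 2 gave ATF3 a log2 fold change of 0.89 or 0.78, and leaving out EC359 replicate 1 or 2 gave 0.91 or 0.76. ATF3 was called when a vehicle library was left out and not when an EC359 library was. ATF4, which activates SLC7A11 when amino acids are short, had 4208 and 4409 with vehicle and 3739.5 and 3726 with EC359 (log2 fold change -0.21, adjusted p = 0.0177) and was not called. DESeq2 and the exact test called ATF4 lower (adjusted p = 0.00912 and 0.000386). STAT3, the factor downstream of the receptor that EC359 targets, had 1842 and 1909 with vehicle and 1858 and 1902 with EC359 (log2 fold change 0.0034, adjusted p = 0.981). LIFR, which encodes that receptor, had 1525 and 1475 with vehicle and 1612 and 1519 with EC359 (log2 fold change 0.06, adjusted p = 0.555).

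Of 4 transcripts often used as markers of ferroptosis, TFRC, the transferrin receptor that brings iron into cells, fell, with 27956 and 26574 normalized counts with vehicle and 23544 and 22785 with EC359 (fold change 0.850, 95% interval 0.806 to 0.895, adjusted p = 0.0055). Without a filter on low counts its adjusted p in edgeR was 0.012. Its log2 fold change was -0.20 or -0.28 without vehicle replicate 1 or 2, and -0.26 or -0.21 without EC359 replicate 1 or 2. TFRC was called when a vehicle library was left out and not when an EC359 library was. CHAC1, which degrades glutathione, had 38.9 and 51.2 with vehicle and 67.2 and 71.0 with EC359 (log2 fold change 0.62, adjusted p = 0.128), and PTGS2 had a log2 fold change of 0.09 (adjusted p = 0.490). HMOX1, which frees iron from heme, had 485 and 560 with vehicle and 580.2 and 542 with EC359, and its groups overlapped. Of all 116 genes of these 13 neighbouring lists, 96 were tested, with a median log2 fold change of -0.0033. Among the 96, 1 was called higher and 2 lower, beside 0.299% and 0.795% of all genes tested. At an unadjusted p under 0.05, 9 were higher and 14 lower, beside 10.7% and 11.0%.

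**Figure D5:**
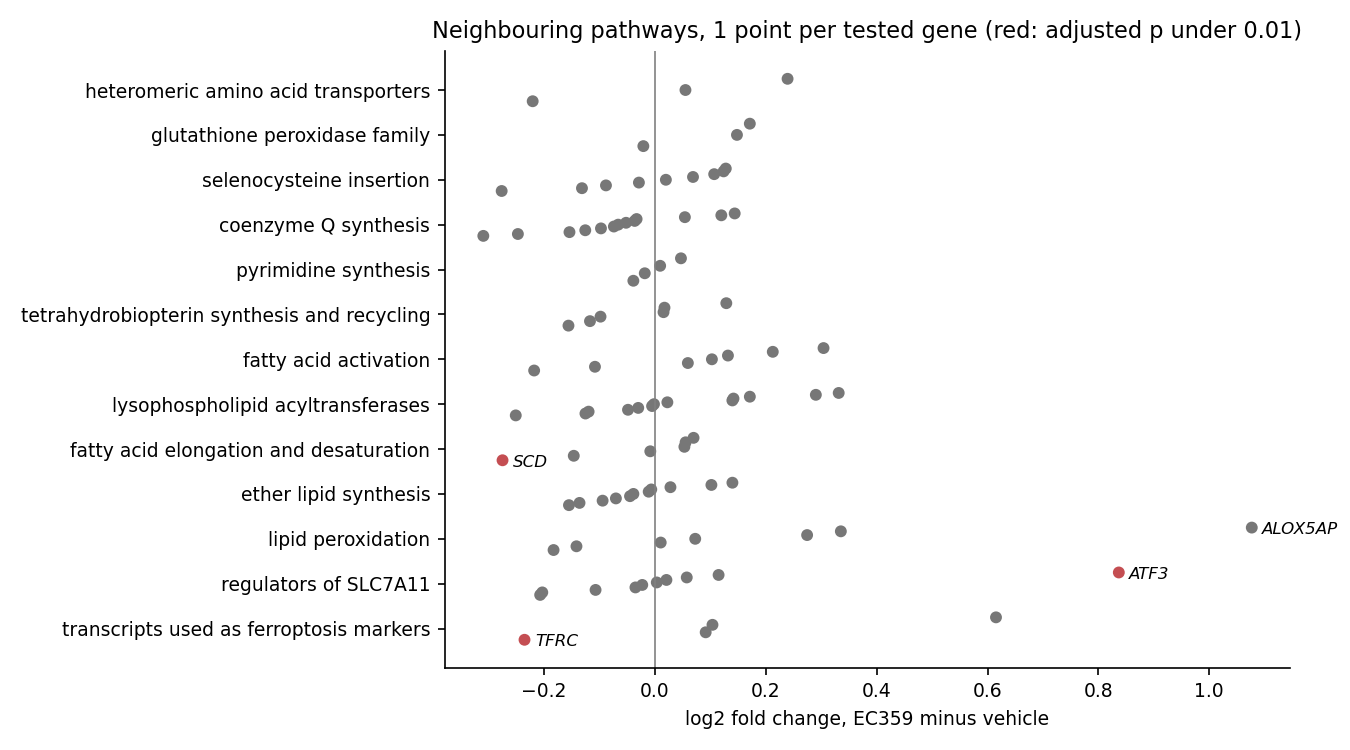
Log2 fold change, EC359 minus vehicle, of the 96 tested genes of 13 neighbouring lists, 1 point per gene, with genes at an adjusted p under 0.01 in red. ATF3 (0.84) was called higher, SCD (-0.27) and TFRC (-0.24) lower, and ALOX5AP (1.08) had few counts.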

How the data were processed

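Data were from 4 RNA libraries of ES2 cells. Per the labels and methods, the authors prepared libraries with a stranded mRNA kit, processed reads of 50 bases with CASAVA 1.8.2, aligned them to UCSC hg19 with TopHat2 2.0.8b, used the NCBI RefSeq annotation and obtained counts from HTSeq (version and strand setting not given in the sources used here). What the authors deposited is a raw count for each symbol. The 5 summary rows were left out (reads in no gene made up 10.9% to 12.0% and reads in several genes 0.852% to 0.879% of these and the counted reads).

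Genes were filtered with filterByExpr (minimum count 10, minimum total 15), normalized by TMM and tested by the quasi-likelihood method of edgeR 4.0.16 in R 4.3.3, with Benjamini-Hochberg adjustment over 12706 genes. The standard error is the log2 fold change over the square root of F, and 95% intervals use its t quantile. Normalized counts are counts at the mean TMM-scaled library size. Lengths, places and overlaps came from GENCODE v44 on GRCh37 (85.1% of tested genes), and CTPS1 is listed as CTPS. Members and lists were chosen with earlier results of these data known. All members were named, then called genes and the 3 with the lowest p of each list, and the 3 genes nearest to each called member (mean of at least 10 CPM). STAT3, LIFR, GPX2 and the other genes named as not tested, HMOX1, GCHFR, POR and CYB5R1 were added after values were seen. Alternatives were other factors (RLE, upper quartile, none), filters and thresholds, DESeq2 1.42.0, edgeR's exact test, limma 3.58.1 voom, a replicate block, removal of GC and length trends, and leaving out each library. The fit was checked on simulated counts. A few genes that the rule names are not reported here.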

Additional observations from a re-analysis of the deposited data

How the results depend on the processing

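The number of genes called depended on the processing more than the direction of SLC7A11 did. Its log2 fold change ran from 0.37 with GC and length trends removed to 0.46 with total counts only, and it was called in 9 of the 10 alternatives that used all libraries, the exception being no filter. With 2 libraries a treatment, small differences in GPX4 or AIFM2 could not be told from the spread. RLE factors, upper-quartile factors, total counts only, limma voom and a filter of 10 counts in every library kept all counts within 1.5 times. Over all genes tested, 38 were higher and 101 lower. With no filter there were 17 and 44, with DESeq2 60 and 170, with the exact test 232 and 329, with GC and length trends removed 259 and 626, at an adjusted p under 0.05 213 and 336, and at an unadjusted p under 0.01 547 and 708. Leaving out 1 library gave from 0 to 256 higher and from 0 to 283 lower. Without EC359 replicate 1 there were 0 called (1460 at an unadjusted p under 0.05) and without EC359 replicate 2 there were 2 (1435), from fits with 1 residual degree of freedom in which the lone library is taken to vary like the others. Of the 10 members, 0 were called higher with no filter, 2 with GC and length trends removed (SLC7A11 and SLC3A2, with 1 lower, ACSL4), and 2 had an unadjusted p under 0.01 (SLC7A11 and GCH1). Leaving out 1 library gave from 0 to 1 higher. Of the related genes, 1 was called higher and 2 lower. With no filter 1 was lower, with DESeq2 0 higher and 5 lower (it set no adjusted p for ATF3), with the exact test 3 and 6, with GC and length trends removed 2 and 6, at an adjusted p under 0.05 3 and 6, and at an unadjusted p under 0.01 5 and 9. Leaving out 1 library gave from 0 to 2 higher and from 0 to 5 lower. The direction turned for GPX4 without vehicle replicate 1 (-0.078, with 0.142 as the highest value when 1 library was left out), for AIFM2 without vehicle replicate 2 (-0.036) or EC359 replicate 2 (-0.078, highest 0.102), and for ACSL3 with GC and length trends removed (-0.028), without vehicle replicate 2 (-0.032) or EC359 replicate 2 (-0.0089, highest 0.0720). No filter tested more genes (16620), and the cause of the other shifts was not tested.

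Replicates 1 and 2 exist in both treatments, and the labels give these numbers no further meaning. Differences between replicates 1 and 2 correlated between the treatments at 0.0987 over genes tested and at 0.516 over those with a mean log2 CPM of at least 5. With a replicate block, 692 genes were called higher and 847 lower, with 3 members higher (SLC7A11, GCH1 with an adjusted p of 0.00433 in place of 0.0735, and AGPS with 0.00784 in place of 0.136) and 0 lower, and 6 related genes higher and 10 lower.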
